A study of Homo sapiens with 2 samples.

Results

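This report concerns 10 genes for enzymes that make serine, one-carbon units, asparagine, cysteine and proline, all known targets of the stress transcription factor ATF4: PHGDH, PSAT1, PSPH, SHMT2, MTHFD2, MTHFD1L, ASNS, CTH, CBS and ALDH18A1. They were taken by symbol from the 58302 genes of the deposited table. Each symbol was found once, and all 10 genes reached 1 FPKM in at least 1 library. FPKM is the number of sequenced fragments scaled to transcript length and to the library's total, so levels of different genes can be compared per length.

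The study sequenced RNA from HL60 cells, an established acute myeloid leukemia line, carrying an EIF2S3 transgene under a Tet-Off promoter. EIF2S3 encodes a subunit of eIF2, the factor that brings the initiator tRNA to the ribosome. Both libraries came from these transgenic cells: one group, DOX(-), was left untreated so that the transgene could be on, and the other, DOX(+), received doxycycline, which shuts the transgene off. Each group was 1 library, so no spread between cultures could be estimated and no test of the conditions was possible. Doxycycline and the transgene differ together between the groups and cannot be told apart. Dose, length of treatment and clonality of the cells are not given in the sources used here.

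EIF2S3 itself was measured at 132.9 FPKM in the DOX(-) library, against 126.2 FPKM where doxycycline was present. This ratio of 1.05 had a counting interval of 0.927 to 1.20 on the shortest annotated transcript and 1.02 to 1.09 on the longest. Overexpression in DOX(-) beyond that size was not seen in these values, and DOX(-) and DOX(+) below stand for the libraries labelled so; of each pair of FPKM values DOX(-) comes first. The FPKM steps put the libraries at 16577668 and 18521104 fragments, and transcripts of the mitochondrial genome took 5.50% and 6.85% of fragments. Of 10 promyelocyte markers, 8 reached 1 FPKM, with a summed level of 1495 and 1221 FPKM, while MPO (0.274 and 0.469 FPKM) and KIT (0.783 and 0.862 FPKM) did not. Of 22 markers of 7 other cell types, 11 were listed at 0 in both libraries and 2 reached 1 FPKM, CD79A (1.66 and 0.709 FPKM) and PECAM1 (10.8 and 11.8 FPKM). In such bulk RNA, fewer cells of a kind and less RNA per cell cannot be told apart.

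Cells make serine from the glycolytic intermediate 3-phosphoglycerate in consecutive steps run by PHGDH, PSAT1 and PSPH. In mitochondria SHMT2 then splits serine into glycine and a one-carbon unit carried on folate, which MTHFD2 oxidizes and MTHFD1L releases as formate for nucleotide synthesis. ASNS makes asparagine from aspartate and glutamine, CBS and CTH move sulfur from homocysteine to cysteine, and ALDH18A1 starts proline synthesis from glutamate. When eIF2 is phosphorylated, as in cells short of amino acids, translation of ATF4 is favoured, and ATF4 switches on genes of this kind through composite elements that it binds together with C/EBP proteins.

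Promoter sequence is shown for the members in which letters of ATF-type elements were found, and for CTH, the member that differed most between the libraries. The RefSeq table (GRCh38.p14) held 14 start sites for 8 of the 10 members, each with 250 bases before and 50 after the start; PSPH and SHMT2 had no entry. Both strands were searched for the C/EBP-ATF composite core TGATGNAA, the full cAMP response element TGACGTCA and its variant TGACGTAA. These motifs were chosen after the promoters had been seen, so the shares below are descriptive and no test of enrichment. The composite core was found in ASNS and MTHFD1L, 2 of 8 members, and in 4.46% of all 27305 genes with a promoter entry. The full element was found in 0 of 8 members and in 2.25% of all genes, and the variant in ALDH18A1, 1 of 8 members, and in 0.513% of all genes. Members with more start sites had more windows searched, 4 for MTHFD1L, 3 for CBS, 2 for ASNS and 1 for each of the others.

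The sequences read from 5′ to 3′ on the strand of the gene, with the element in capitals. The ASNS stretch is the 250 bases before the start (chr7:97872409-97872658, minus strand), with TGATGAAA beginning 68 bases before the start. The MTHFD1L stretch is 30 bases (chr6:150866346-150866375, plus strand), with TGATGCAA beginning 129 bases before the start used here. Other MTHFD1L starts place the same letters 90 bases before the start or 25 bases into the transcript. The ALDH18A1 stretch (chr10:95656712-95656961, minus strand) carries TGACGTAA 12 bases before the start. The CTH stretch (chr1:70411018-70411267, plus strand) holds none of these letters and is shown in lower case throughout.
ASNS: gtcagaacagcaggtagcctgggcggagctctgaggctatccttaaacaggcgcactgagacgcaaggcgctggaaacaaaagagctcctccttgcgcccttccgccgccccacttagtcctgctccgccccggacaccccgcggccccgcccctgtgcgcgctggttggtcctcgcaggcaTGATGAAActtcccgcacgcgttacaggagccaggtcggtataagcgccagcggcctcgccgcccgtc
MTHFD1L: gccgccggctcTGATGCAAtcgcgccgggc
ALDH18A1: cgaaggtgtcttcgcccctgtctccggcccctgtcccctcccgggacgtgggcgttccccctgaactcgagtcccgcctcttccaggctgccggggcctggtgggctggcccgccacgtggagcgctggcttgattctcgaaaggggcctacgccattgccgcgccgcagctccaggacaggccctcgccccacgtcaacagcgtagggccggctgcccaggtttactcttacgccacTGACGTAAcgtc
CTH: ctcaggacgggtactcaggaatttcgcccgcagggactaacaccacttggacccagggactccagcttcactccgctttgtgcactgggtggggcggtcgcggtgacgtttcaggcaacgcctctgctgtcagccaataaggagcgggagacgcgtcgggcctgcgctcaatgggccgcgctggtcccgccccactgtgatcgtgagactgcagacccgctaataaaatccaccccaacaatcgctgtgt
A match describes these letters and not binding. The members with the composite core had ratios between the libraries of 1.47 (ASNS) and 1.05 (MTHFD1L), the second highest and the second lowest of the 10.

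The levels of the 10 genes covered a range of 47.2-fold in DOX(-) and 42.0-fold in DOX(+), from CBS, the lowest, to ALDH18A1, the highest. Their FPKM summed to 291.9 in DOX(-) and 226.0 in DOX(+), and PSAT1 and ALDH18A1 alone made up 62.6% and 61.8% of these sums. In DOX(-) the order was ALDH18A1, PSAT1, MTHFD2, SHMT2, MTHFD1L, PHGDH, PSPH, ASNS, CTH and CBS. In DOX(+) MTHFD1L came first of MTHFD1L, SHMT2 and MTHFD2, with SHMT2 next and MTHFD2 last, and the other places were the same.

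Counting intervals, which cover counting error only, were compared between genes close in that order. Where the intervals did not overlap, depth could tell the levels apart. An overlap does not show that it could not, because the difference between genes was not tested. The counting intervals are 95% intervals on fragments estimated from the shortest annotated transcript of each gene, the choice that makes them widest. In DOX(-), ALDH18A1 (92.4 to 105.5 FPKM) lay above PSAT1 (80.4 to 87.8 FPKM), while in DOX(+) their intervals met (68.0 to 78.6 and 63.3 to 69.6 FPKM). MTHFD2, SHMT2 and MTHFD1L overlapped each other in both libraries, as did PHGDH with PSPH, and ASNS with CTH. PSPH overlapped ASNS in DOX(-) but not in DOX(+), and CTH overlapped CBS in DOX(+) but not in DOX(-).

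**Figure D1:**
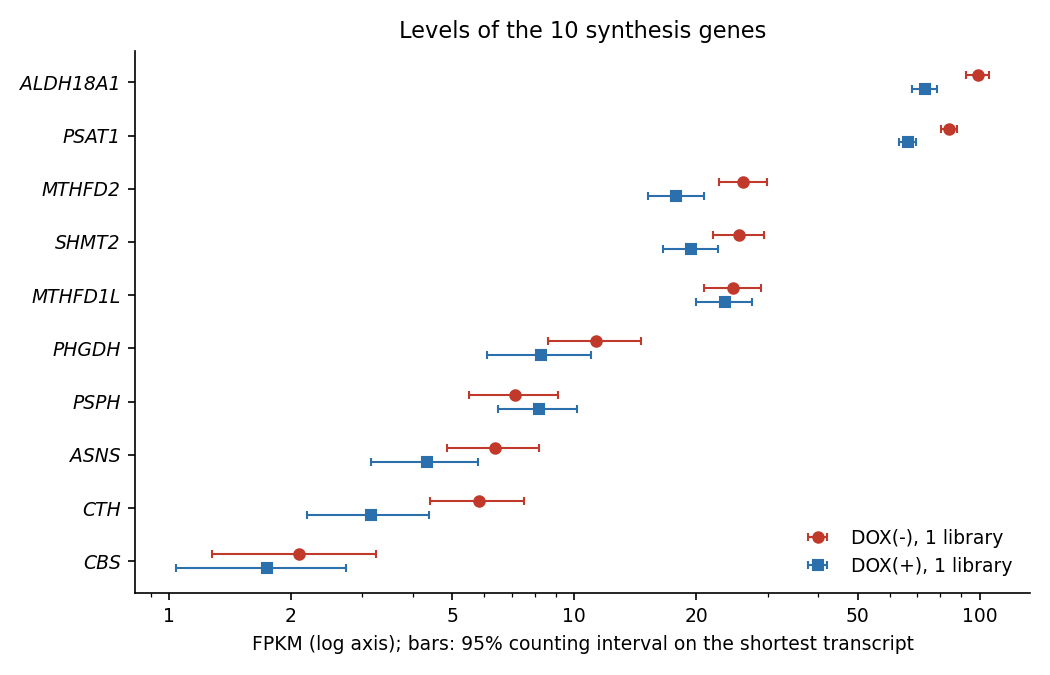
FPKM (log axis) of the 10 synthesis genes in the 2 libraries, with 95% counting intervals on the shortest transcript as bars. The circles of DOX(-) lie to the right of the squares of DOX(+) for 9 genes and to the left for PSPH, and ALDH18A1 and PSAT1 stand above 60 FPKM in both.

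Most of the 10 genes were modestly higher in the library labelled DOX(-). The members were chosen with earlier results of these data known, so the shares below are descriptive and no test. On the log2(FPKM + 1) scale 9 of the 10 had a difference above 0, where 46.6% of the 11525 genes tested did. The rule of size was at least 1.5-fold on that scale: 1 of 10 members, CTH, was higher (3.11% of all genes were) and 0 of 10 were lower (4.06% of all genes were). The median log2 difference of the members was 0.39, against -0.02 over all genes tested, and the range ran from -0.17 (PSPH) to 0.71 (CTH). At a lower threshold, 0.32 on the log2 scale, 7 of the 10 were higher and 0 lower, where 9.98% of all genes were higher and 12.9% lower.

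The counting interval of the plain FPKM ratio left out equal levels for 5 members on the shortest transcripts, PSAT1, SHMT2, MTHFD2, CTH and ALDH18A1. On the longest transcripts, which give more fragments, it did so for 7, with PHGDH and ASNS added. These intervals say nothing about differences between cultures. FPKM sums over transcripts, so a different division of reads among transcripts of unequal length could also change a value, which was not tested.

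**Figure D2:**
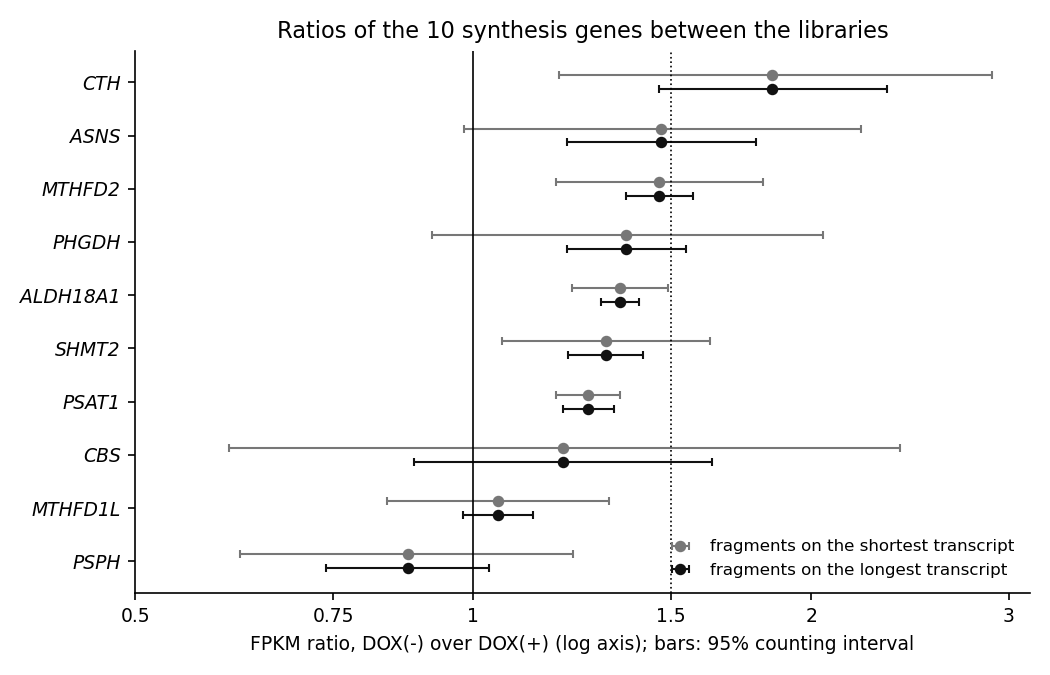
FPKM ratio of DOX(-) over DOX(+) (log axis) for each gene, with 95% counting intervals on the shortest (grey) and longest (black) annotated transcript; the solid line marks equal levels and the dotted line 1.5-fold. CTH has the highest ratio, 1.84, and PSPH, at 0.874, is the single gene below 1.

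Against all genes tested, CTH lay where 1.81% of genes had an equal or larger log2 difference, MTHFD2 at 3.91%, ASNS at 5.13% and ALDH18A1 at 6.13%. PHGDH stood at 6.63%, SHMT2 at 7.77% and PSAT1 at 9.24%. The remaining members were inside the bulk of the distribution, CBS at 21.6%, MTHFD1L at 35.8% and PSPH at 72.3%.

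**Figure D3:**
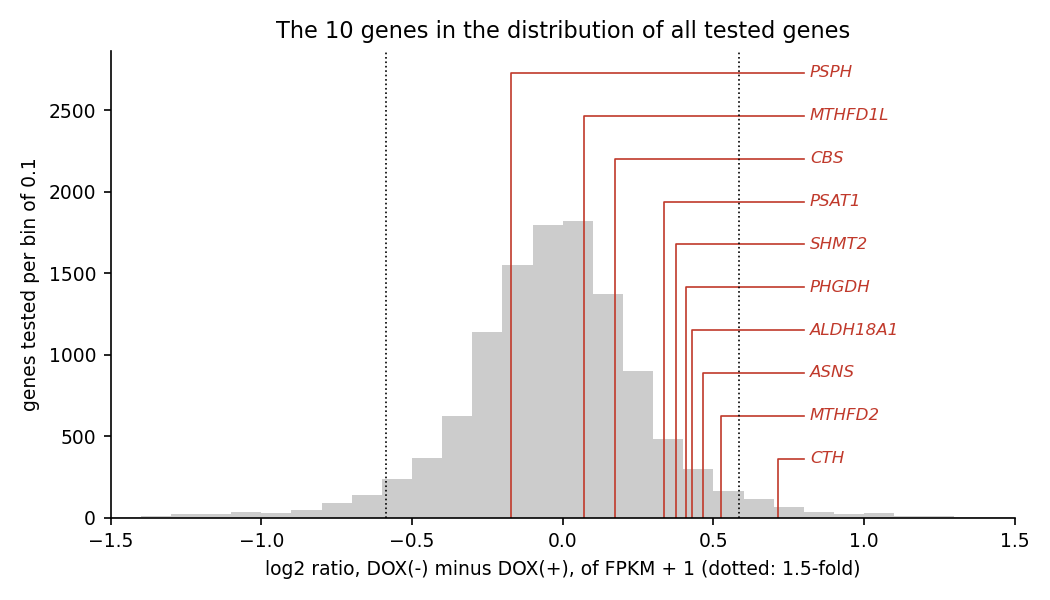
Histogram of the log2 difference (DOX(-) minus DOX(+), FPKM + 1) of all 11525 genes tested, drawn from -1.5 to 1.5, with the place of each of the 10 genes marked in red and 1.5-fold by dotted lines; 71 genes lie outside the drawn range. From PSAT1 upward, 7 genes sit on the right shoulder between 0.34 and 0.71, and CTH alone passes 1.5-fold.

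In the serine pathway the ratios of PHGDH and PSAT1 were above 1 and that of PSPH below 1. On the shortest transcripts the interval of PSPH overlapped that of PHGDH and that of PSAT1. On the longest transcripts the interval of PSPH (0.740 to 1.03) lay below those of PHGDH (1.21 to 1.55) and PSAT1 (1.20 to 1.33). PHGDH, the dehydrogenase that draws carbon out of glycolysis (chromosome 1, 119648411 to 119744226, GRCh38), was at 11.3 and 8.28 FPKM, a ratio of 1.37 (0.919 to 2.05). This interval held equal levels, while that on the longest transcript (1.21 to 1.55) left them out. PSAT1, the aminotransferase (chromosome 9, 78297143 to 78330093), was at 84.0 and 66.4 FPKM, a ratio of 1.27 (1.19 to 1.35). PSPH, the phosphatase that releases serine (chromosome 7, 56011051 to 56051604), was at 7.13 and 8.16 FPKM, a ratio of 0.874 (0.620 to 1.23) whose interval held equal levels.

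Within a library the scaling between libraries cancels. No counting interval was made for such ratios of 2 genes, here or below. The level of PSAT1 over that of PSPH was 11.8 in DOX(-) and 8.14 in DOX(+), and that of PHGDH over PSPH 1.59 and 1.01. PSAT1 over PHGDH was nearly the same, 7.42 and 8.02. The transcript of the middle enzyme was therefore several times more abundant per length than that of either neighbour in both libraries. PSPH has listed pseudogenes that could take reads from it: PSPHP1 stood at 2.31 and 2.48 FPKM, and AC104692.1 at 0.670 and 1.80 FPKM, which are 1 and 3 fragments. The PSPHP1 transcript of 261 nucleotides matched the longest PSPH transcript at 78.2% of bases.

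Of the mitochondrial one-carbon enzymes, SHMT2 and MTHFD2 were higher in DOX(-) and MTHFD1L was nearly level. SHMT2, which makes glycine and methylene-tetrahydrofolate (chromosome 12, 57229327 to 57234935), was at 25.5 and 19.4 FPKM, a ratio of 1.31 (1.06 to 1.63). MTHFD2, the dehydrogenase and cyclohydrolase (chromosome 2, 74198562 to 74217565), was at 26.1 and 17.8 FPKM, a ratio of 1.46 (1.19 to 1.81). MTHFD1L, the formate-releasing synthetase (chromosome 6, 150865549 to 151101887), was at 24.7 and 23.5 FPKM, a ratio of 1.05 (0.838 to 1.32).

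Transcripts of these 3 enzymes of consecutive steps were close to each other in level, and the values of their proportions differed between the libraries. The counting intervals of their between-library ratios overlapped on the shortest transcripts. On the longest, that of MTHFD1L (0.979 to 1.13) lay below those of SHMT2 (1.215 to 1.42) and MTHFD2 (1.37 to 1.57). MTHFD2 stood at 1.06 times MTHFD1L in DOX(-) and 0.760 times in DOX(+), and SHMT2 at 1.03 and 0.828 times MTHFD1L. SHMT2 over MTHFD2 was 0.976 and 1.09. The cytosolic partners were nearly level between the libraries, SHMT1 at 5.81 and 5.56 FPKM (ratio 1.05, 0.625 to 1.75) and the trifunctional MTHFD1 at 28.9 and 27.6 FPKM (ratio 1.05, 0.851 to 1.29). SHMT2 exceeded SHMT1 4.39-fold in DOX(-) and 3.50-fold in DOX(+). MTHFD2L, the close relative of MTHFD2, was at 0.245 and 0.229 FPKM, at most 13 fragments in each library, so that MTHFD2 exceeded it 107-fold and 78.0-fold.

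ASNS, which makes asparagine with glutamine as nitrogen donor (chromosome 7, 97852118 to 97872542), was at 6.36 and 4.33 FPKM. The ratio of 1.47 was second among the 10 genes. Its interval was 0.981 to 2.22 on the shortest transcript (59 and 45 fragments) and 1.21 to 1.79 on the longest (248 and 189 fragments), so the length assumed decides whether equal levels are inside. A gene that shares ASNS exons on the same strand, AC079781.5, was at 0.0914 and 0.430 FPKM, low beside ASNS. ASNSD1, a gene of related sequence, was at 5.996 and 3.47 FPKM (ratio 1.73, 1.10 to 2.73).

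In the transsulfuration pathway the gene of the downstream enzyme had the higher ratio, but its counting interval overlapped that of the upstream one. CTH, the lyase that yields cysteine (chromosome 1, 70411218 to 70439851), was at 5.81 and 3.15 FPKM, a ratio of 1.84 (1.19 to 2.90) and the largest difference of the 10. CBS, which joins serine to homocysteine (chromosome 21, 43053191 to 43076943), was the lowest member at 2.09 and 1.74 FPKM, a ratio of 1.20 (0.606 to 2.40) from 20 and 18 fragments. CTH over CBS was 2.78 in DOX(-) and 1.81 in DOX(+).

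The CBS value is uncertain. The build holds a near-identical copy, CBSL (chromosome 21, 6444869 to 6468040), whose longest transcript of 2656 nucleotides differs from that of CBS by 4 edits (99.8% identity), so reads can be assigned to either. CBSL was listed at 0.677 and 0.694 FPKM. The sum of the pair was 2.77 and 2.44 FPKM, a ratio of 1.14.

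ALDH18A1, the synthase of the proline precursor in mitochondria (chromosome 10, 95605929 to 95656706), had the highest level of the 10, 98.8 and 73.2 FPKM. Its ratio of 1.35 had a counting interval of 1.22 to 1.49. PYCR3 and PYCR1, reductases that finish proline, were far lower. PYCR3 was at 2.71 and 4.79 FPKM (ratio 0.566, 0.339 to 0.924), the direction opposite to ALDH18A1. PYCR1 was at 0.0352 and 0.142 FPKM, at most 1 and 5 fragments. ALDH18A1 exceeded PYCR3 36.5-fold in DOX(-) and 15.3-fold in DOX(+).

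**Figure D4:**
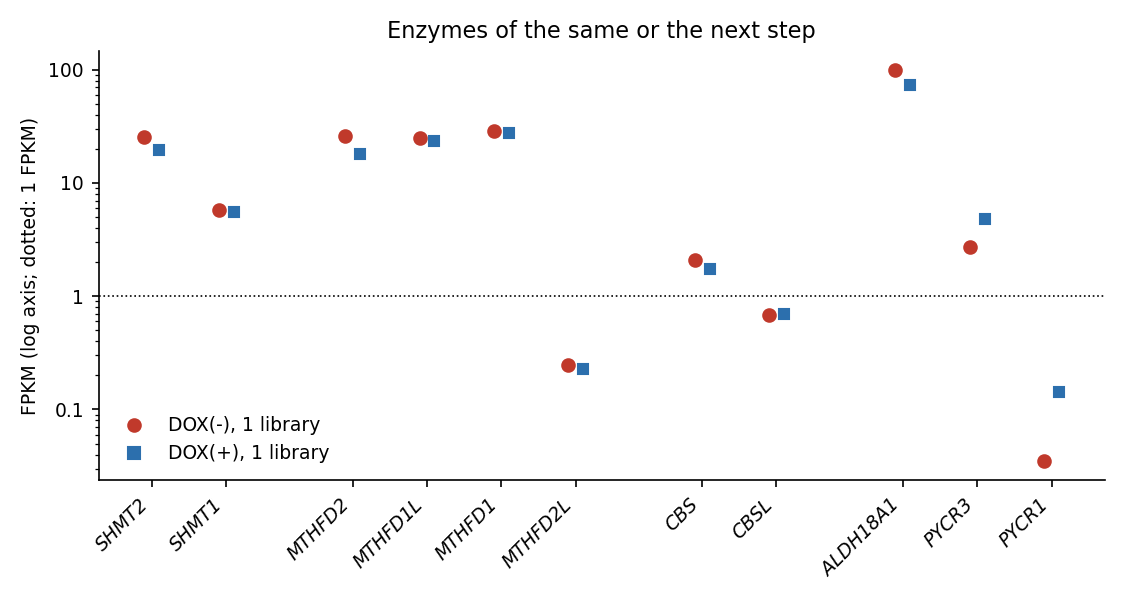
FPKM (log axis) of members beside enzymes of the same or the next step, with circles for DOX(-) and squares for DOX(+), 1 library each; the dotted line is 1 FPKM. MTHFD2L, CBSL and PYCR1 lie below 1 FPKM in both libraries, and ALDH18A1 and PYCR3 differ in opposite directions.

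By their medians, the wider pathways around the members were closer to the bulk of genes than the members themselves. By the rule of size this did not hold for every list, as the counts below show. Counts below are of genes at 1 FPKM or more, and 1.5-fold is on the log2(FPKM + 1) scale. For every list the comparison is all genes tested, of which 3.11% were higher and 4.06% lower, with a median of -0.02. Of 15 tested serine and glycine genes, 0 were 1.5-fold higher and 0 lower, with a median of 0.10. Without the members the median of the other 11 was 0.06. DLD, a shared subunit of mitochondrial dehydrogenases and of glycine cleavage, was lower at 14.3 and 18.6 FPKM, a ratio of 0.768 (0.590 to 0.998).

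Of 17 tested folate and one-carbon genes, 1 was 1.5-fold higher and 0 lower, and the median was 0.05 (0.04 for the 14 that are not members). The higher gene was PPAT, the first committed enzyme of purine synthesis, which uses no folate itself but feeds steps that do, at 6.74 and 3.88 FPKM (ratio 1.74, 1.15 to 2.65). The folate carrier SLC19A1 was at 6.85 and 9.30 FPKM (ratio 0.737, 0.531 to 1.02).

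Of 17 tested methionine and cysteine genes, 1 was 1.5-fold higher, CTH, and 2 were lower, and the median was 0.04. It was -0.03 for the 15 that are not members. Lower were GCLM, the modifier subunit of glutathione synthesis, at 3.17 and 6.99 FPKM (ratio 0.454, 0.288 to 0.699), and MAT2A, which makes S-adenosylmethionine, at 35.2 and 58.6 FPKM (ratio 0.601, 0.524 to 0.688).

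Of 14 tested aspartate, asparagine and glutamine genes, 1 was 1.5-fold higher, ASNSD1, and 0 lower, with a median of 0.14 (0.14 without ASNS). GLUL, the glutamine synthetase, was at 53.7 and 37.0 FPKM (ratio 1.45, 1.28 to 1.64), and GOT1, the cytosolic aspartate aminotransferase, at 8.67 and 5.78 FPKM (ratio 1.5, 1.09 to 2.08). Of 8 tested proline and ornithine genes, 1 was higher and 1 lower, PYCR3, with a median of 0.11 (0.05 without ALDH18A1). The higher gene was ALDH4A1, whose enzyme runs only the last step of proline breakdown to glutamate, at 15.6 and 9.97 FPKM (ratio 1.56, 1.18 to 2.07). The count of higher genes became 0 after rescaling without mitochondrial genes or with a pseudocount of 5 FPKM, and 2 with one of 0.1 FPKM. PYCR3 stayed below 5 FPKM, so the count of lower genes was 0 at that filter.

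ATF4 itself was higher in DOX(-), and its partner factors went both ways. ATF4 was at 100.7 and 71.7 FPKM, a ratio of 1.40 (1.32 to 1.49), close in size to the ratios of PHGDH and ALDH18A1. Among all genes tested, 3.11% were 1.5-fold higher, 4.06% were lower and 46.6% were above 0. Of 16 tested genes of the ATF4 list, 11 were above 0 and 5 below, and the median was 0.24. By the rule of size, 5 were 1.5-fold higher and 0 lower. Of the 5, CHAC1 passed the filter of 1 FPKM only through DOX(-), the library where it was higher. It was at 1.31 and 0.435 FPKM, from 19 and 7 fragments on the shortest transcript. The 5 were the CHOP gene DDIT3 (ratio 2.68, 1.57 to 4.72), the mTORC1 inhibitors SESN2 (2.13, 1.92 to 2.36) and DDIT4 (1.82, 1.61 to 2.07), the glutathione-degrading CHAC1 (3.01, 1.20 to 8.58) and the lipoprotein receptor VLDLR (1.62, 1.13 to 2.33); of these, DDIT3 alone is a transcription factor. The 5 genes below 0 were the transcription factors ATF5, at 4.88 and 7.37 FPKM (ratio 0.662, 0.465 to 0.933), CEBPA (0.892, 0.864 to 0.922), NFE2L2 (0.769, 0.397 to 1.46), BATF (0.853, 0.644 to 1.13) and CEBPG (0.949, 0.883 to 1.02). With a pseudocount of 0.1 FPKM, 1 gene of the list was 1.5-fold lower, ATF5. None of the 10 synthesis genes reached the plain FPKM ratio of DDIT3, SESN2 or CHAC1. CTH came closest, at 1.84 (1.19 to 2.90), above DDIT4 and VLDLR. The interval of CTH overlapped that of each of the 5 higher genes. MYC is also known to act on several serine and one-carbon genes and was named after its value was seen. It was at 29.5 and 2.06 FPKM, a ratio of 14.3 (8.18 to 27.3). The part of ATF4, MYC or doxycycline in the values above was not tested.

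**Figure D5:**
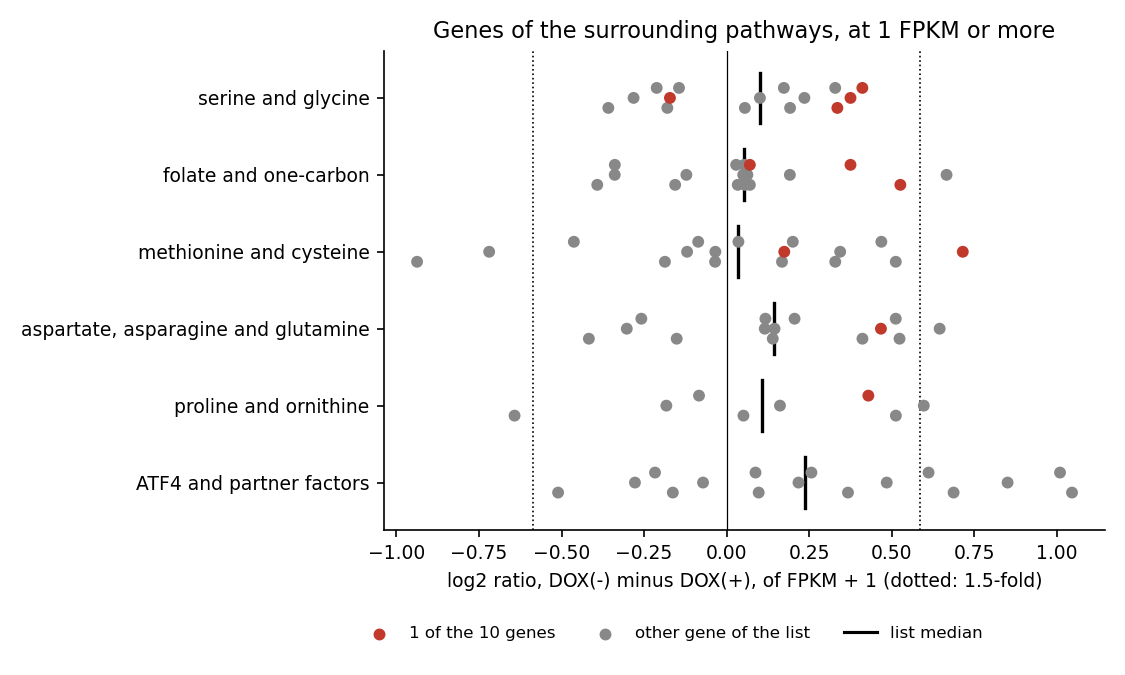
Log2 difference (DOX(-) minus DOX(+), FPKM + 1) of each tested gene of the 6 surrounding lists, with the 10 synthesis genes in red, list medians as black bars and 1.5-fold as dotted lines; genes on several lists appear in each. The red points lie to the right of the list median except PSPH, and 5 ATF4-list genes lie beyond 1.5-fold.

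The members lie on 8 chromosomes (PHGDH and CTH both on 1, PSPH and ASNS both on 7), and the genes beside them showed no common direction. The nearest tested protein-coding gene on each side was taken, 20 in all. Of these, 8 had a log2 difference above 0, where 46.6% of all genes tested did, and the median was -0.05. By the rule of size 2 were lower in DOX(-), where 4.06% of all genes were, and none was higher. They were ZBTB2 beside MTHFD1L (8.65 and 13.5 FPKM) and PKNOX1 beside CBS (2.33 and 4.40 FPKM). CTH lay between ANKRD13C (2.15 and 3.34 FPKM) and ZRANB2 (11.4 and 12.8 FPKM), each lower in DOX(-) where CTH was higher.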

How the data were processed

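The 2 RNA-seq libraries of HL60 cells, 1 for each condition, were analysed. The deposited values are FPKM per gene, made by the authors, per the file headers. Tools listed in the submitters' processing notes, without their roles, are HISAT2 2.1.0, StringTie 1.3.4b, CASAVA 1.8 and edgeR, on build GRCh38 (hg38). The annotation release was not given in the sources used here. No count model was fitted.

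Differences were taken as log2(FPKM + 1) in DOX(-) minus DOX(+), for genes that reached 1 FPKM in at least 1 library, and ratios without a pseudocount as plain FPKM; the pseudocount understates differences of low genes. Transcript lengths came from GENCODE release 29, which gave the same locus for 56647 of the 58302 genes. Depth was recovered from genes with 1 transcript: at 16577668 and 18521104 fragments, 99.98% and 99.97% of values up to 100 fragments (5561 and 5949 genes) were whole within 0.02. Ratio intervals are exact conditional 95% intervals (Clopper-Pearson), level intervals exact Poisson ones, both for counting error only, since fragments are not independent molecules. Calculations used Python 3.11.15, numpy 2.4.6, pandas 2.3.3 and scipy 1.17.1, and were tested on simulated data.

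The members and the 6 pathway lists (117 symbols) were chosen with earlier results of these data known, and the motifs after the promoters had been seen. Named genes were all members, ATF4, EIF2S3, fixed isozyme partners, member pseudogenes at 1 FPKM or more, and in each list the genes past 1.5-fold, or where fewer than 3 passed, the 3 with the largest difference at 2 FPKM or more. MYC, AC079781.5, the neighbours, the ATF4 list's genes below 0, the markers named and the genes of the closing observations were chosen after their values were seen. A gene that this rule names is not reported here. Alternatives covered pseudocount, filter, threshold, scaling, gene type and transcript length.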

Additional observations from a re-analysis of the deposited data

How the results depend on the processing

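CTH was the single member past 1.5-fold under the settings reported, and this count of 1 became 0 with a pseudocount of 5 FPKM or a threshold of 2-fold, and 7 at a threshold of 0.32 on the log2 scale. No member was 1.5-fold lower under any of these settings. The sign of each member's difference was the same under both other pseudocounts, both filters (CBS was not tested at 5 FPKM), median-of-ratios and trimmed mean scaling, and rescaling without mitochondrial genes. CTH ranged from 0.41 to 0.86, MTHFD1L from 0.05 to 0.09 and PSPH from -0.19 to -0.12. Without the low-value filter the list medians turned to -0.015 (methionine and cysteine) and -0.012 (proline and ornithine), since genes near 0 FPKM then entered. Over all genes the counts higher and lower, 358 and 468, became 631 and 880 with a pseudocount of 0.1 FPKM, 83 and 110 with one of 5 FPKM, and 161 and 205 with a filter of 5 FPKM. They were 219 and 277 for protein-coding genes, 96 and 138 at 2-fold and 1150 and 1490 at 0.32 on the log2 scale. The ATF4 list's 5 higher genes became 2 with a pseudocount of 5 FPKM, 3 with the filter of 5 FPKM and 2 at 2-fold. With a pseudocount of 5 FPKM or at 2-fold, the other 5 lists had 0 higher genes, and of their lower genes only 1 of the methionine and cysteine list was left, with the pseudocount of 5 FPKM. Depth limits CBS most, at 20 and 18 fragments on its shortest transcript. No paired analysis was possible because each condition has 1 library.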

Other observations

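Transcripts of several enzymes that would take mitochondrial one-carbon units and glycine further, and of other genes of folate handling, were below 1 FPKM in both libraries. The glycine cleavage genes GLDC (0.0138 and 0.0123 FPKM) and AMT (0.0285 and 0.0291 FPKM) were near 0, and GCSH stood at 0.505 and 0.709 FPKM, while their shared partner DLD was well expressed. ALDH1L2, which oxidizes formyl-tetrahydrofolate in mitochondria, was at 0.00844 and 0.0264 FPKM. The proton-coupled folate carrier SLC46A1 was listed at 0 in both libraries, and the folate hydrolase GGH was at 0.0915 and 0.105 FPKM.

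Transporters that serve the same pathways differed widely in level, and their differences went both ways. The neutral amino acid transporter SLC1A5 stood at 114.7 and 91.2 FPKM, with DOX(-) given before DOX(+) (ratio 1.26, 1.11 to 1.43 by counting error), and its relative SLC1A4, which carries serine, at 27.8 and 24.5 FPKM (ratio 1.13, 0.931 to 1.38). The cystine exchanger SLC7A11 was lower in level, at 3.97 and 4.27 FPKM, as was its heavy chain SLC3A2, at 7.54 and 7.33 FPKM. The mitochondrial serine carriers SFXN1 and SFXN3 stood at 5.65 and 6.35 FPKM and at 3.53 and 2.84 FPKM, and the mitochondrial folate carrier SLC25A32 at 13.4 and 17.2 FPKM (ratio 0.778, 0.649 to 0.932). AHCY, which releases the homocysteine that CBS uses, was at 102.6 and 73.9 FPKM (ratio 1.39, 1.253 to 1.54), while MAT2A, earlier in the same cycle, was lower in DOX(-). ASS1, which consumes aspartate, was at 28.9 and 21.5 FPKM (ratio 1.34, 1.10 to 1.65).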
